A study of Homo sapiens with 4 samples.

Results

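The H3K27ac peaks of RD cells were compared between SKP2 knockdown and control, 63813 of the 78084 peaks in the 4 ChIP-seq lists of the study. RD is an established line derived from rhabdomyosarcoma of the fusion-negative kind (FN-RMS), a tumor with features of arrested skeletal muscle. Control cells carried a non-targeting shRNA (shSCR) and knockdown cells an shRNA against SKP2 (shSKP2), both from a lentiviral vector with puromycin selection, in RD cells, which carry mutant p53, in growth medium. Every peak on an autosome or sex chromosome entered, 25356 in control and 38457 in knockdown, with 1 library per arm and 1 shRNA to SKP2. No spread between replicates exists, so no difference was tested, and the intervals given (Wilson, 95%) cover counting error only. The 20007 protein-coding genes of GENCODE release 44, each with 10 kb on either side, were then ranked by the change in base pairs covered by peaks.

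H3K27ac is acetylation of lysine 27 of histone H3, which p300 and CBP write and histone deacetylases remove. It marks the nucleosomes beside active promoters and enhancers, while the start site between them is often free of nucleosomes. SKP2 is the substrate receptor of an SCF ubiquitin ligase that sends cell cycle inhibitors such as p27 to the proteasome. In muscle, MYOD and MYOG bind E-box sequences and turn on the differentiation program, and p57 and p21 hold the cell cycle in check.

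The stretches printed here lie under or beside peaks of 1 arm and show examples of the DNA that gains and losses fell on. The first 3 are among the highest-scoring knockdown-only peaks away from promoters (over 2 kb from a start site) that overlapped a MYOD peak and held CAGCTG, an E-box that MYOD binds, within 100 bases of the summit. They come from GRCh38, plus strand, with the E-box in capitals.
NRXN2 locus, chr11:64688666-64688866: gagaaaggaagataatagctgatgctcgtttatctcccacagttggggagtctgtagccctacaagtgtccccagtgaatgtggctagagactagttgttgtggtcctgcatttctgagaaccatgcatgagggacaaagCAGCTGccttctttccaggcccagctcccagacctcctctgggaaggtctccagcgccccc
SFRP5 locus, chr10:97765068-97765268: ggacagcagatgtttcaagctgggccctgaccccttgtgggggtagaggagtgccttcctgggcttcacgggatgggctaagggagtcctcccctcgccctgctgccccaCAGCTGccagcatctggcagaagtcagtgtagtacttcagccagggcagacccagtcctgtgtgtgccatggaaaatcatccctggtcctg
GDAP2 locus, chr1:117821562-117821762: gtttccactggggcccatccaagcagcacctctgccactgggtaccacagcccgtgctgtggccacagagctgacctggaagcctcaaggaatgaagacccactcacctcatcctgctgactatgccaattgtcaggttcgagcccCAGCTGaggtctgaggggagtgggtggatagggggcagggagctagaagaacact

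The peak nearest NRXN2 had a score (-log10 p of the peak caller) of 38.5 and 13.2-fold enrichment over background, and its summit lay 34431 bp downstream of the start site. The peak nearest SFRP5, a secreted WNT antagonist, scored 36.7 at 7.93-fold, and that nearest GDAP2 scored 27.6 at 7.62-fold. The E-box CAGCTG, which reads the same on both strands, stood in 8.63% of the 14710 distal knockdown-only summit windows of 201 bp, in 8.97% of the 11751 distal shared ones and in 7.85% of 82847 windows 5 kb away and outside peaks. The E-box CAGGTG or CACCTG stood in 12.2% (11.6 to 12.7) of the distal knockdown-only, 11.9% of the distal shared and 17.2% (16.9 to 17.5) of the off-peak windows. The E-box CACGTG stood in 1.79%, 2.26% and 2.21%.

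The next 3 are the 200 bases before the start site at genes whose promoter peak stood in 1 arm, from the RefSeq promoter table (GRCh38.p14) in the direction of transcription. Capitals mark GC boxes (GGGCGG or CCGCCC) and CCAAT boxes (CCAAT or ATTGG), searched on both strands. At SESN2 and ACTR5 a knockdown-only peak covered this stretch, and at E2F7 a control-only peak lay just downstream of it.
SESN2, chr1:28259318-28259517, plus strand: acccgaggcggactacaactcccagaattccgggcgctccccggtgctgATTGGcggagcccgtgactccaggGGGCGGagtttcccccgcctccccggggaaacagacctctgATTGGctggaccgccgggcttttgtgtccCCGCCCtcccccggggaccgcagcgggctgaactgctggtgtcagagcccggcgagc
ACTR5, chr20:38748260-38748459, plus strand: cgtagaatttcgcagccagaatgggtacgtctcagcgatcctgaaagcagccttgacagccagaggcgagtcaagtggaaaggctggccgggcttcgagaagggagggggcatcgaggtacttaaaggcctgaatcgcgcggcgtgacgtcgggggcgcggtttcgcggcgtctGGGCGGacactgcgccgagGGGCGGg
E2F7, chr12:77065570-77065769, minus strand: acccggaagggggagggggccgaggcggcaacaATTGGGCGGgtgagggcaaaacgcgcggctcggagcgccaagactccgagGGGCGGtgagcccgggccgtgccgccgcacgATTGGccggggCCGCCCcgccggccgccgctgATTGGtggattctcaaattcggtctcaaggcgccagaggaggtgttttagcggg

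All 3 are CpG-rich, with 18 CpG dinucleotides in SESN2, 23 in ACTR5 and 25 in E2F7, where the median of all 35116 promoter windows was 9. A GC box stood in 40.1% of all these windows and a CCAAT box in 28.0%, so neither is rare. ACTR5 encodes an actin-related subunit of the INO80 chromatin remodeler, and its knockdown-only peak scored 40.8 at 10.6-fold, 213 kb from the nearest control peak. E2F7, a repressor of cell cycle genes, had a single control peak of 443 bp in intron 1, scoring 6.90 at 4.00-fold, and no knockdown cover.

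The last stretch is under the highest-scoring control-only peak with no knockdown peak within 1000 bp. It is satellite repeat near the centromere of chromosome 4, with the repeated unit ATTCC in capitals, and it lies 163162 bp from its nearest protein-coding start site, that of CWH43.
Satellite, chr4:49149347-49149527: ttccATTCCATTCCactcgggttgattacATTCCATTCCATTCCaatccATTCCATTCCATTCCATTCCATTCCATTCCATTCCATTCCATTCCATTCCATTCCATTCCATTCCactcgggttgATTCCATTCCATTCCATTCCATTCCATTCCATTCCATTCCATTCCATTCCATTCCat

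This peak of 195 bp scored 96.3 at 17.1-fold, and a MYOD peak overlapped it. Reads from such repeats cannot be placed with certainty, and the uncertainty of their position was not tested. The same tandem unit stood in 0.141% of the 2832 distal control-only windows and 0.104% of the off-peak windows, so satellite was rare among the losses.

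The acetylated part of the genome was wider in knockdown, both by peaks that spread beyond their control counterparts and by knockdown-only peaks. The latter had a median score of 8.20, against 16.9 for shared knockdown peaks. Control peaks covered 11.6 Mb and knockdown peaks 23.7 Mb, a ratio of 2.05. With both lists cut at a score of 10 the ratio was 2.48. Of the control cover, 84.3% was also covered in knockdown. Of the 14.0 Mb of knockdown cover with no control peak, 6.09 Mb (43.6%) lay at the rims of shared peaks and 7.89 Mb (56.4%) in knockdown-only peaks. Control cover lost in knockdown came to 1.81 Mb, of which 0.991 Mb was in control-only peaks and 0.821 Mb at the rims of shared peaks.

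Peaks that matched 1 to 1 numbered 17406, and 83.1% of them were wider in knockdown. Their median width was 396 bp in control and 650 bp in knockdown, and the median difference was 180 bp. Enrichment was higher in knockdown for 75.2% of the pairs, with a median log2 ratio of 0.23. Promoter pairs (summit within 2 kb of a start site) and distal pairs had nearly the same shift, with median log2 ratios of 0.24 and 0.22 and wider peaks in 86.0% and 81.2%. A further 2129 knockdown peaks each joined 2 or more control peaks, whereas 135 control peaks were split between 2 or more knockdown peaks. Peaks over 1 kb made up 5.11% of the control list and 15.6% of the knockdown list.

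The shortest control peak was 180 bp and the shortest knockdown peak 206 bp, a difference of 26 bp. With each knockdown peak shortened by that length, the ratio of covered length was 1.96. The files give no read totals. The lowest background behind a peak, recovered from its fold and score, was 1.75 fragments in control and 1.61 in knockdown, a ratio of 0.920. Reads in peaks, spike-in recovery and ChIP efficiency are not in the lists, and their part in the wider cover was not tested.

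The peaks found in 1 arm were mostly weak. Among knockdown peaks scoring 4 to 5, 91.6% (89.6 to 93.2) had no control counterpart, against 47.9% (46.8 to 48.9) at 10 to 15 and 3.11% (2.64 to 3.67) at 25 to 50. Of the 1204 knockdown peaks scoring 50 or more, 1 lacked a counterpart, the peak at the promoter of SESN2, a stress-induced inhibitor of mTORC1. Control peaks followed the same slope at a lower level, with 40.8% lacking a knockdown counterpart at 4 to 5 and 5.02% at 10 to 15.

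**Figure D1:**
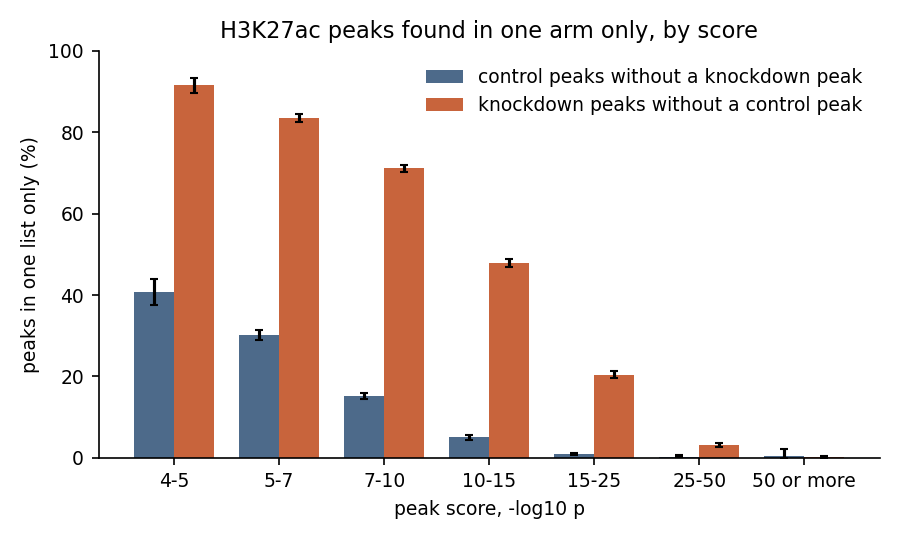
Share of H3K27ac peaks without a counterpart in the other arm (%, y axis) by the score of the peak (-log10 p, x axis) for control and knockdown peaks; error bars are 95% Wilson intervals of counting error, with 1 library per arm. Knockdown peaks lacked a counterpart in 91.6% at scores of 4 to 5 and 3.11% at 25 to 50, and control peaks in 40.8% and 0.244%.

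Of the 3446 control-only peaks, 1665 (48.3%) were within 1 kb of a knockdown peak. Of the 18677 knockdown-only peaks, 23.5% (22.9 to 24.1) were within 1 kb of a control peak, and 26.7% (26.1 to 27.3) were more than 50 kb from any. The control list is the sparser one, so these 2 sets of distances have different baselines and are not compared. MYOD peaks of either arm overlapped 2584 of 11751 distal shared, 1348 of 14710 distal knockdown-only (9.16%) and 164 of 2832 distal control-only peaks (5.79%). At promoters the shares had the same order, at 17.3%, 7.89% and 3.75%. Median width had that order too, at 704 bp in shared knockdown, 356 bp in knockdown-only and 257 bp in control-only peaks. So did the median score, at 16.9, 8.20 and 6.65. A wider peak has more room to overlap, and the part of width and score in these shares was not tested.

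The 5 highest-scoring knockdown-only peaks with no control peak within 1000 bp lay near SESN2, PPM1E, IGFBP7, FGL2 and ACTR5. PPM1E, a phosphatase of AMPK and PAK kinases, had a peak of 983 bp in intron 1 that scored 46.4 at 11.8-fold. The peak of FGL2, a fibrinogen-like secreted protein, covered its first exon and scored 41.1 at 8.28-fold. The peak assigned to IGFBP7 stood at -1812009 bp from its start site, with no protein-coding start site nearer. Below the satellite peak, the control-only peaks of highest score lay near CCDC200 (29.7), PMAIP1 (28.1), CWH43 again (25.3) and PBX3 (24.2). PMAIP1 encodes NOXA, an inducer of apoptosis, and the cover of its own domain was nonetheless 0.729 kb in control and 2.38 kb in knockdown.

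Among matched pairs, the largest ratio of enrichment was in intron 4 of GPR158, an orphan receptor, at 3.64-fold in control and 11.7-fold in knockdown. FOXD4L4, CARMIL3, CCDC186 and SULF2 were nearest to the next 4, all starting from control peaks of 3.26 to 4.00-fold. The largest losses of enrichment were near PZP (11.3 to 5.45-fold) and at the start sites of HNRNPU (5.22 to 2.56-fold), SLF1 (7.39 to 3.66-fold) and C5orf34 (7.12 to 3.66-fold), and near MCTP2 (8.55 to 4.40-fold). HNRNPU encodes a nuclear matrix RNA-binding protein and SLF1 a factor that recruits SMC5/6 to stalled replication forks. The peak that widened most had its summit in intron 1 of SH3GLB1, an endophilin of autophagy, and spanned 680 bp in control and 2716 bp in knockdown, while its enrichment was 5.50-fold in control and 4.41-fold in knockdown. EML6, LRP11, SMPDL3A and HDGF followed, with gains of 1972, 1929, 1750 and 1744 bp. The peaks that narrowed most were nearest to NR2F1, CYP21A2, TGFBR1, NEDD1 and PPARA. The width nearest NR2F1 decreased by 1180 bp and that nearest PPARA decreased by 885 bp.

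Cover was larger in knockdown at every distance from gene starts, and by a larger ratio far from them. Summits within 0.5 kb of a start site covered 3.34 Mb in control and 6.20 Mb in knockdown, a ratio of 1.86. Beyond 10 kb the ratio was 2.23 to 2.24 in each class of distance. The kept share of control peaks went from 95.7% within 0.5 kb to 80.1% beyond 200 kb. By chromosome the ratio ran from 1.85 on chromosome 19 to 2.61 on chromosome 13, and no peak of either list lay on chromosome Y.

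Around start sites the shape was kept, with a dip between a nucleosome before and one after the start. The peak side downstream, 200 bp past the start, was covered at 23.8% of genes in control and 34.4% in knockdown. The upstream shoulder, at -400 bp, was covered at 16.8% and 27.1%. At the start itself the shares were 8.53% and 18.2%, so the ratio was 2.14 there against 1.45 at 200 bp. Of 20007 promoters, 8147 (40.7%) were marked in both arms, 2134 (10.7%) in knockdown alone and 161 (0.805%) in control alone.

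**Figure D2:**
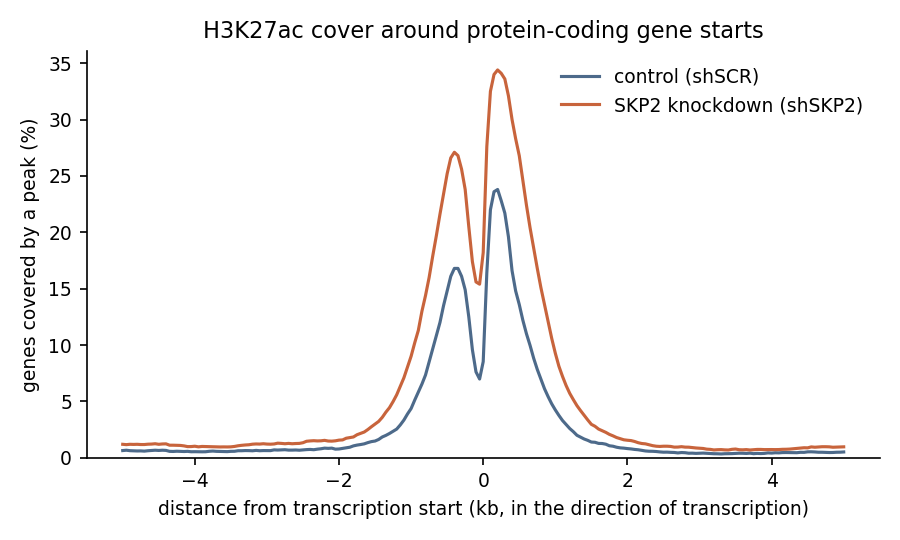
Share of 20007 protein-coding genes covered by an H3K27ac peak (%, y axis) at each distance from the start site (kb, x axis, in the direction of transcription), in control and knockdown. Both curves have a dip at the start and a maximum 200 bp downstream, at 23.8% in control and 34.4% in knockdown.

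The DNA under distal gains was poorer in GC than that under kept peaks. Median GC content at the summit was 41.8% in distal knockdown-only windows, 44.3% in distal shared knockdown windows and 44.8% in distal control-only windows, with 42.3% off peaks. Over whole stretches, GC content was 51.9% in the core shared by both arms, 49.3% in the rims that knockdown added, 46.5% in knockdown-only peaks and 40.9% in the genome. These stretches pool promoter peaks with distal ones. Shared knockdown peaks were 8029 at promoters and 11751 distal, and knockdown-only peaks 3967 and 14710. Median GC content at promoter summits was 61.7% and 59.7% in these 2 classes. The part of the promoter share in the pooled values was not tested. The AT-rich MEF2 box stood in 2.77% of distal knockdown-only, 2.31% of distal shared and 1.59% of distal control-only windows, beside 2.64% off peaks. The AP-1 element (TGACTCA or TGAGTCA) was at 3.03%, 2.76% and 3.18%, beside 3.20%. ETS elements (CCGGAA or TTCCGG) stood in 7.76% of promoter knockdown-only windows, 12.0% of promoter shared and 6.68% of promoter control-only windows, beside 1.62% off peaks. These windows center on acetylated nucleosomes, beside which factors tend to bind.

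Across genes, 13366 (66.8%) had more cover in knockdown and 785 (3.92%) had less, while 5851 had none in either arm. The median change was 400 bp, the 95th percentile 2241 bp and the 99th 4200 bp. Losses were smaller, with a median of -166 bp, and 8 genes lost 1 kb or more. Among 12037 genes with control cover the median ratio of knockdown to control was 1.82. Of the 17 skeletal muscle markers, 14 had cover in control and 16 in knockdown, in sum 16.4 and 30.8 kb, with none in either arm at DES. Of these markers 14 had more cover and 2 had less. Their ratio of summed cover was 1.88, below the 1.96 of all genes. Of the lists of other cell types, 9 of 21 cardiac and smooth muscle genes, 8 of 20 neuronal and glial genes, 6 of 20 epithelial and liver genes, 11 of 20 adipocyte, cartilage and bone genes and 12 of 20 blood and endothelial genes had cover in either arm. Among all 20007 genes 14156 did.

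The upper end of the ranking held long genes of signaling, adhesion, cytoskeleton and transcription. RAD51B, a gene of recombination repair, headed it, where 32 peaks covered 13.5 kb in control and 47 covered 28.7 kb in knockdown. PDE4D, which degrades cAMP, had 10.8 and 25.8 kb. NRG1, the neuregulin ligand of ERBB receptors, had 20.4 and 35.3 kb, with nearly the same number of peaks (42 and 43). PRKG1, the cGMP-dependent kinase, had 10.5 and 22.9 kb. PALM2AKAP2, which anchors protein kinase A, had 5.29 and 18.1 kb. At NRG1 and ADAM12 most control peaks were kept and wider, while at PDE4D 34 of 53 knockdown peaks had no control counterpart.

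Adhesion and matrix genes at that end were CDH13, a cadherin anchored by lipid (3.81 and 14.6 kb), LTBP1, which holds latent TGF-beta in the matrix (4.23 and 12.9 kb), ADAM12, a metalloprotease linked to myoblast fusion (15041 and 23688 bp), and COL19A1, a collagen (4.46 and 12.8 kb). ASAP1 (4.95 and 12.9 kb), BCAR3 (14.7 and 22.3 kb), NAV2 (6481 and 14991 bp) and MAP2 (2.72 and 10.1 kb) act on actin, adhesion signaling or microtubules. The transcription factors were RUNX1 (8.16 and 17.4 kb), ZFPM2, a partner of GATA factors (4.70 and 13.3 kb), TCF4, an E protein that pairs with MYOD (3.55 and 11.0 kb), and the corepressor RERE (6.27 and 13.5 kb). TMTC2 (3.06 and 12.2 kb), CDK14 (2.79 and 10.7 kb) and an unnamed gene at the SHB locus, ENSG00000255872 (8081 and 16968 bp), complete the 20. Domains of these 20 were 305 to 1573 kb long, where the median of all genes was 47.5 kb. All 20 stayed above control with both lists cut at a score of 10. With the knockdown list cut by score to the covered length of the control list, 12 of the 20 were below control and 8 above. That cut kept only knockdown peaks scoring at least 15.6, while control peaks down to 4.00 stayed.

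**Figure D3:**
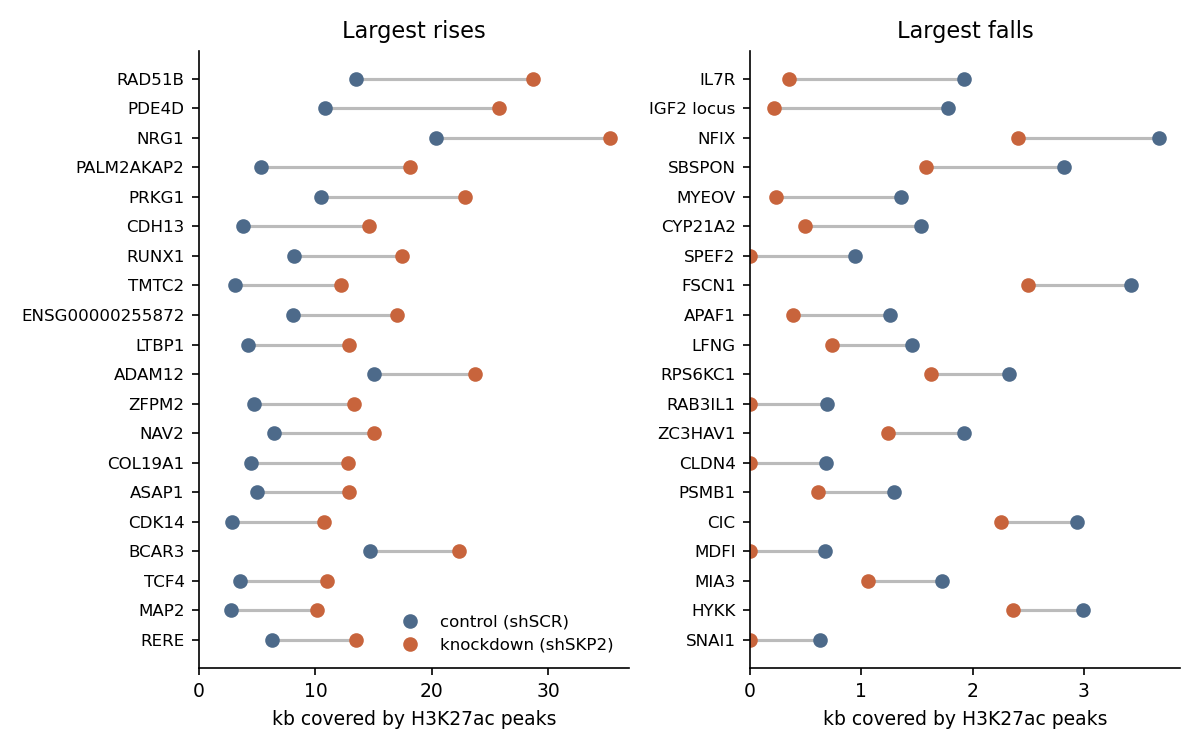
Kilobases covered by H3K27ac peaks (x axis) in control and knockdown for the 20 loci that gained most cover (left) and the 20 that lost most (right); grey lines join the arms, and the panels have different scales. At the upper end knockdown reaches 35.3 kb at NRG1, and at the lower end 5 loci have no knockdown cover.

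Per kb of domain, the order favors short genes in dense stretches. Its first 10 loci were MRPL24, CRABP2, ACY1, CEND1, ATP5ME, RPL23A, RPL41, MRPL53, MYOG and PPM1J. MYOG, the factor that starts terminal muscle differentiation, had 0.876 kb in control and 3.11 kb in knockdown. CRABP2, which carries retinoic acid, had 1.90 and 5.01 kb. Without the 10 kb flanks the difference at MYOG was 0.281 kb, and at CEND1, ATP5ME and PPM1J it was 0. This order was chosen after the values were seen.

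Genes with no control cover at all numbered 2119 with knockdown cover. ATG14, a subunit of the autophagy lipid kinase, led them with 4.35 kb in 9 peaks, from 180 bp before the start site to beyond the last exon. ATP8B1, a lipid flippase, had 3.89 kb, SAMD5 3.55 kb and HSBP1, which binds heat shock factor, 3.41 kb. HSBP1 overlaps the end of CDH13, so knockdown peaks there also count in the gain of CDH13. TAS1R1, with its neighbors ZBTB48 and NOL9, had 3.34 kb in 8 peaks. SPIRE1, an actin nucleator, had 3.07 kb, PAWR, a pro-apoptotic factor, 2.85 kb, GALNTL6 2.75 kb, PLEKHA5 2.68 kb and DAPK2, a death-associated kinase, 2.60 kb.

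At the lower end the losses were smaller, at domains of 23.3 to 244 kb, 10 of them longer than the median of all genes. IL7R, the interleukin 7 receptor, had 1.92 kb in control over 5 peaks, and a single peak of 0.349 kb remained; the control-only peaks in its last exon spanned 689 and 413 bp at scores of 5.68 and 7.73. The IGF2 locus, listed under the readthrough gene ENSG00000284779 with IGF2 and INS-IGF2, had 1.78 and 0.214 kb. IGF2 is the imprinted fetal growth factor that many rhabdomyosarcomas express. Its control peaks were at 2140133 to 2140469, 2140945 to 2141497 and 2142065 to 2142951 of chromosome 11, and a knockdown peak scoring 4.71 remained at 2141284 to 2141497. The 3 control peaks scored 11.9, 9.82 and 8.13, all in intron 2 of the readthrough gene.

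NFIX, a factor of the fetal muscle program, had 3.68 and 2.41 kb, and most of that difference was 1 control-only peak of 994 bp in intron 2. At NFIX the other 3 knockdown peaks with the largest scores, 18.2, 16.4 and 13.2, were as high as or higher than the control peaks under them. FSCN1, the actin bundler fascin, had 3.43 and 2.50 kb with its 3 knockdown peaks at scores of 13.6 to 23.9. MDFI, an inhibitor of MYOD family factors, had 0.670 kb in 2 weak control peaks and no cover after knockdown. The one at its promoter scored 5.74 at 3.30-fold, and neither reached a score of 10. SNAI1, a repressor of epithelial genes, had 3 weak control peaks outside the gene, 0.627 kb in sum, and no knockdown cover. LFNG, the fringe enzyme that modifies Notch, had 1.46 and 0.739 kb.

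The other loci of the 20 were SBSPON (2.82 and 1.58 kb), MYEOV (1.36 and 0.230 kb), CYP21A2 (1.54 and 0.496 kb, in an intron of TNXB), SPEF2 (0.943 and 0 kb), APAF1, the apoptosome scaffold (1.26 and 0.383 kb), RPS6KC1 (2.33 and 1.63 kb), RAB3IL1 (0.689 and 0 kb), ZC3HAV1, an antiviral RNA-binding protein (1.92 and 1.24 kb), CLDN4, a claudin (0.680 and 0 kb), PSMB1 with its neighbor TBP (1.29 and 0.613 kb), the repressor CIC (2.94 and 2.26 kb), MIA3 (1.73 and 1.06 kb) and HYKK (2.99 and 2.36 kb). At PSMB1 the promoter peak itself scored 56.4 in control and 89.4 in knockdown while its width was 936 and 613 bp. The 41 control-only peaks at these 20 loci had a median score of 7.41, and 11 of them reached 10. With both lists cut at a score of 10, 10 of the 20 loci stayed below control, 4 were above it and 6 had no change. Among those 6 were the 5 loci without a knockdown peak, which had no control peak of that score either. Other genes with no knockdown cover were CNRIP1 (0.625 kb in control), CBR3 (0.598 kb), ZCCHC14 (0.591 kb) and MUC6 (0.542 kb).

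Gene lists were read against all protein-coding genes, of which 66.8% had more and 3.92% less cover, with a ratio of summed cover of 1.96. Among 25 myogenic regulators, 23 had more cover and PAX7, the satellite cell factor, had less (1709 and 1496 bp), with a median change of 869 bp and a ratio of 2.03. MYF5, which starts the lineage, had no control cover and 1.07 kb in knockdown. MYOD1 had 0.758 and 1.35 kb, and MEF2D 2.88 and 5.55 kb. PAX3 had 2.89 and 5.62 kb. TCF4 had the largest change of the list, 7.46 kb. It held 3.55 of the 34.0 kb in control and 11.0 of the 69.2 kb in knockdown. The ratio of 2.03 thus rests in part on this gene. With knockdown peaks cut by score to the covered length of control, 12 of the 25 regulators were above control and 11 below. Among all genes 25.9% were below at that setting.

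The 56 sarcomere genes split, as 40 had more cover, 4 had less and 12 none in either arm, with a ratio of 1.95. SYNPO2 (1.97 and 5.56 kb), MYL1, a fast light chain (0.916 and 3.62 kb), TNNI1, slow troponin I (0.955 and 3.26 kb), and MYH8, the perinatal myosin (0.512 and 2.60 kb), led. ACTN2 (0.594 and 0.306 kb), UNC45B, MYL4 and MYBPC2 had less. The adult fast myosins MYH1, MYH2 and MYH4 had no peak in either arm. Of 42 genes of fusion, neuromuscular junction and calcium release, 31 had more cover and 3 had less, with a ratio of 1.82. MYOF, a ferlin of membrane fusion, had 6.18 and 10.5 kb, while CDH15, or M-cadherin, had 0.931 and 0.653 kb and MYMX, or myomixer, had 0.675 and 0.468 kb.

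At SKP2 itself, 2 peaks covered 0.867 kb before knockdown and 4 peaks covered 1.65 kb after it, the added ones in the 5' UTR of exon 1 and in intron 2. An shRNA acts on the transcript, so the peaks do not check the knockdown. Of the 25 genes of the SCF ligase and neddylation, 23 had more cover and BTRC, another substrate receptor, had less (0.856 and 0.704 kb), with a ratio of 1.89. CUL1, the scaffold of SCF, had 1.40 and 3.78 kb. Among 11 CDK inhibitors and pocket proteins, 9 had more cover and 2 had less. CDKN1A, or p21, had 0.389 and 2.55 kb. CDKN1B, or p27, had 1.83 and 3.82 kb. CDKN1C, or p57, had 0.321 and 0.295 kb, and RBL1, or p107, had 1.06 and 1.03 kb.

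Of 50 cell cycle and DNA replication genes, 42 (84.0%) had more cover and 6 (12.0%) had less. Their median change was 469 bp, above the 400 bp of all genes, whereas their ratio was lower, at 1.58. Control cover of this list was 20.1 bp per kb of domain, against 7.63 for all genes. Beside E2F7, the 6 were BUB1B and BUB1, kinases of the spindle checkpoint (0.928 and 0.580 kb, 670 and 550 bp), BIRC5, or survivin (0.534 and 0.335 kb), RRM2, a ribonucleotide reductase subunit (1.98 and 1.79 kb), and CCNA2, cyclin A2 (0.843 and 0.739 kb). CDK6 had the largest gain of that list, from 6.70 to 11.2 kb, and CDC20 had 1495 and 3266 bp.

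The replication-dependent histone genes had a ratio of 1.33, the lowest of the groups plotted, with 17 of 69 (24.6%) below control. Their domains overlap, so the 69 fall in 9 separate stretches and the 17 in 6. H3C12 had 1.98 and 1.51 kb and H3C3 1.33 and 0.923 kb, whereas H2BC14 had 0.335 and 2.12 kb. Proteasome subunits had a ratio of 1.44 (4 of 39 below control), HOX genes 1.54 (4 of 39, with HOXD11 at 1.80 and 1.27 kb), clustered protocadherins 1.55 (0 of 53, in 4 separate stretches), the housekeeping list 1.55 (1 of 24) and cytosolic ribosomal proteins 1.67 (4 of 86). The HOX genes lie in 5 separate stretches. With both lists cut at a score of 10, 15 of the 53 protocadherins (28.3%) were below control, against 3.31% of all genes. Mitochondrial ribosomal proteins were at 1.95 (3 of 78). Control cover per kb of domain was 56.2 bp for the histone genes, 59.4 for HOX genes and 33.3 for cytosolic ribosomal proteins. It was 23.8 for proteasome subunits and 23.4 for both protocadherins and housekeeping genes, against 7.63 for all genes. Mitochondrial ribosomal proteins had 19.7, with a ratio close to that of all genes. The part of dense control cover in the low ratios was not tested.

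Innate antiviral genes had a ratio of 1.51, with 26 of 40 above control and 6 below. Their control cover was 19.5 bp per kb of domain, against 7.63 for all genes. IRF1 had 0.697 and 0.340 kb, and the RNA sensors RIGI and IFIH1 had 1.70 and 1.39 kb and 0.619 and 0.464 kb. On the opposite side of the same list, ISG15 had 1.80 and 4.52 kb. Of 28 Notch genes, 18 had more and 4 (14.3%) had less, with a ratio of 1.84. Beside LFNG these were the ligand JAG1 (0.434 and 0 kb), MFNG (0.210 and 0 kb) and NOTCH2 (1.46 and 1.41 kb), while the coactivator MAML2 had 4.88 and 8.66 kb, NOTCH1 had 0.706 and 2.35 kb and the ligand DLL1 0.279 and 1.90 kb. Among the Notch genes 1 (3.57%) was below control with both peak lists cut at a score of 10, against 3.31% of all genes.

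In the TGF-beta list, 28 of 38 had more cover and 3 had less. Those 3 were SMAD7 (2.29 and 1.77 kb), SMAD6 (0.768 and 0.566 kb) and SKIL (0.943 and 0.607 kb), all of which restrain SMAD signaling. TGFBR2 had 1.70 and 3.71 kb and BMPR1A 3.02 and 6.68 kb, and LTBP1 again led. Of 49 matrix and integrin genes, 38 had more and 5 (10.2%) had less, among them VCAN (2.56 and 2.09 kb), COL5A1 (2.08 and 1.62 kb) and FN1 (1.31 and 1.19 kb), whereas COL5A2 had 7.98 and 12.5 kb and LAMA2 4.08 and 7.99 kb.

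The actin cytoskeleton and adhesion list had the largest median change among the lists, 1443 bp, with 46 of 50 above control. Of its members 15 (30.0%) stood among the first 1000 genes of the ranking, which hold 5.00% of all genes. MACF1 (9.14 and 16.0 kb), DST (3.01 and 9.35 kb), PALLD (1.82 and 7.26 kb) and ACTN4 (6.87 and 12.2 kb) led, and TAGLN2 (1.77 and 1.46 kb) had the largest loss. Its ratio of sums, 1.86, was below that of all genes, and its median domain was 103 kb. At equal covered length 21 of its members were above control and 27 (54.0%) below, against 25.9% below among all genes. The Hippo list had 7 of 25 (28.0%) among the first 1000, with a median domain of 115 kb against 47.5 kb for all genes. Its ratio was 2.07, and at equal covered length 8 were above control and 13 below. TEAD1 led and held 3.63 of the 36.6 kb in control and 10.3 of the 75.7 kb in knockdown, so the ratio rests in part on it. ANKRD1, a target of YAP, had 1.56 and 1.29 kb.

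Enzymes and readers of histone acetylation had 31 of 34 members above control, with a ratio of 2.08. HDAC4 had 4.09 and 7.45 kb and KAT6A 1.76 and 4.73 kb. CREBBP, which encodes CBP, had no control cover and 1.58 kb in knockdown, and EP300 had 1.02 and 2.42 kb. HDAC8 had less (0.906 and 0.525 kb). RAB GTPases had a ratio of 2.30, cadherins 2.41 and the WNT list 2.21. Of the 14.1 and 34.0 kb of the cadherins, CDH13 alone held 3.81 and 14.6 kb. The WNT list had 36 of 46 above and 0 below control, with TCF7L1 at 3.01 and 6.75 kb. Of all genes 3.92% were below, so few would be in a list of 46. With both peak lists cut at a score of 10, 2 WNT genes (4.35%) were below control, against 3.31% of all genes. At equal covered length 12 (26.1%) were below, against 25.9% of all genes.

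Metabolic lists had no member below control, where 3.92% of all genes were, so few would be in lists this short. Glycolysis had 24 of 26 above, with HK1 at 0.232 and 3.68 kb, and sterol and fatty acid synthesis 27 of 30, with ACACA, acetyl-CoA carboxylase, at 2.17 and 6.60 kb. With both peak lists cut at a score of 10, 2 of the sterol and fatty acid genes (6.67%) were below control, against 3.31% of all genes. Of 36 p53 targets and stress genes, 33 had more cover and NQO1 had less (1.41 and 1.32 kb), with a ratio of 1.88. TRIB3, induced by ATF4, had no control cover and 1.70 kb in 5 knockdown peaks, none of which reached a score of 10. SESN2 had no control cover and 1.32 kb, all of it the promoter peak. Of 39 RAS-ERK feedback and early response genes, 36 had more cover, led by ETV1 (4.19 and 7.25 kb) and ATF3 (1.79 and 4.25 kb), and SPRED1 (1.02 and 0.745 kb) and DUSP4 (2.87 and 2.74 kb) had less. At scores of at least 10 SPRED1 had 0.745 kb more cover in knockdown.

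**Figure D4:**
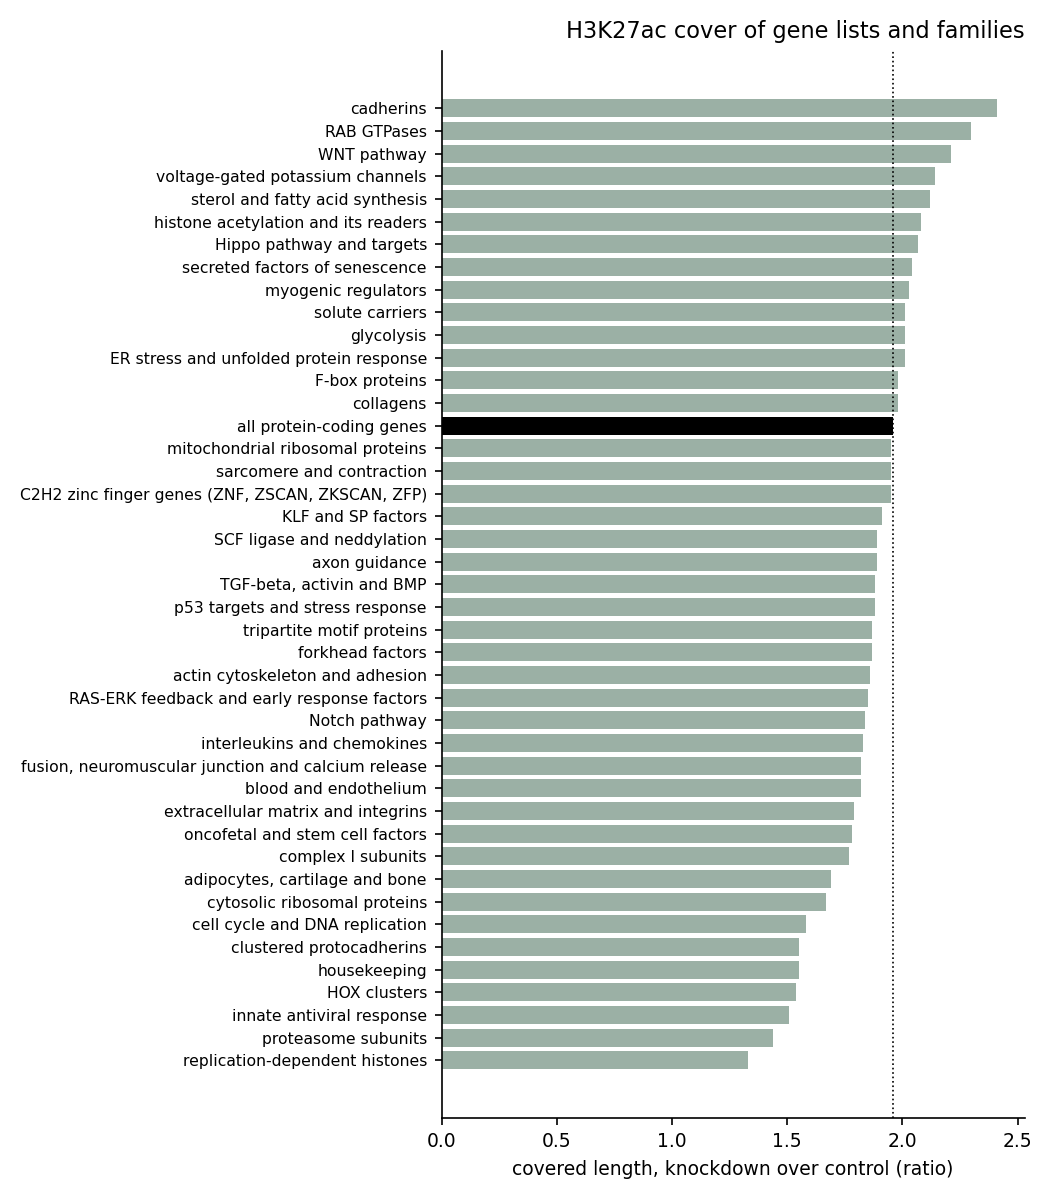
Ratio of summed H3K27ac cover, knockdown over control (x axis, 1 value per set), for gene lists and families with at least 20 members and at least 10 kb of control cover, 1 family left out; the black bar and dotted line are all 20007 protein-coding genes at 1.96. Ratios run from 1.33 for replication-dependent histones to 2.41 for cadherins, where CDH13 alone held 14.6 of the 34.0 kb in knockdown.

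The lists of ER stress, axon guidance, oncofetal factors and secreted senescence factors had ratios of 1.78 to 2.04, beside 1.96 for all genes. ER stress genes had a ratio of 2.01, with ATF6 at 1.86 and 4.40 kb and MANF at 1.11 and 0.892 kb. Axon guidance was at 1.89, with SEMA3A at 7.06 and 12.8 kb and PLXND1 at 3.97 and 3.48 kb. Oncofetal factors were at 1.78, where MSI2 (5.27 and 10.9 kb) and HMGA2 (3.98 and 7.83 kb) stood opposite IGF2. The secreted factors of senescence were at 2.04, with TIMP2 at 2.65 and 5.35 kb and CCN2 at 0.308 and 0 kb. ACTB had 3.52 and 5.82 kb. The lists of other tissues had ratios from 1.63 (cardiac and smooth muscle) to 2.59 (epithelium and liver). Their summed control cover was 3.83 to 18.3 kb per list, so single genes weigh much. In these lists RUNX2 had 8.87 and 13.0 kb, MBP 4.25 and 9.17 kb, KRT8 0.736 and 3.42 kb, KCNQ1 1.11 and 2.39 kb and MYL7 0.293 and 0 kb. Of 415 olfactory receptor genes, 10 had any cover, in sum 2.03 kb in control and 7.08 kb in knockdown.

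**Figure D5:**
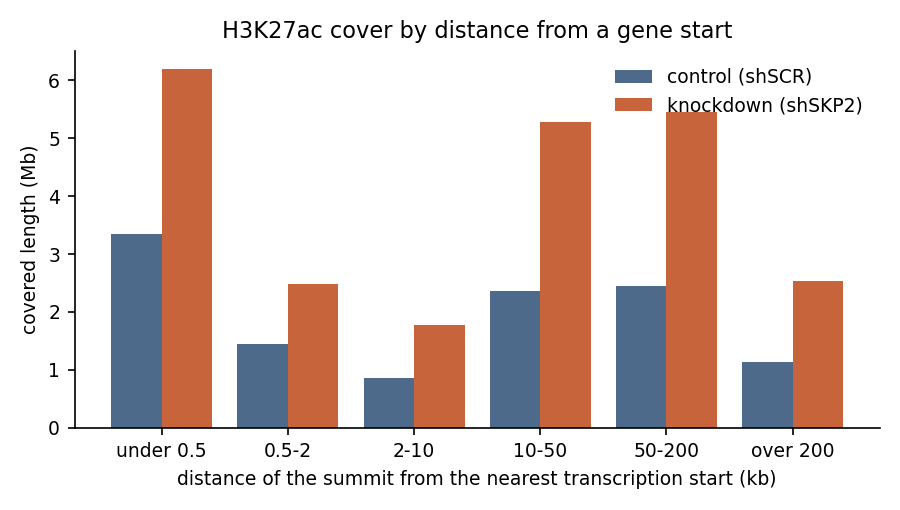
Length covered by H3K27ac peaks (Mb, y axis) in control and knockdown by distance of the summit from the nearest protein-coding start site (kb, x axis). Cover was 3.34 and 6.20 Mb within 0.5 kb, and the ratio went from 1.73 at 0.5 to 2 kb to 2.24 beyond 200 kb.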

How the data were processed

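ChIP-seq was performed on RD cells with MNase-digested chromatin, an H3K27ac antibody and Drosophila spike-in chromatin. Per the labels and the study's methods, reads were aligned with BWA 0.7.17 to GRCh38, peaks were called with MACS3 in narrow mode against input, and excluded regions were removed. The methods state normalization to Drosophila reads, while the MACS3 parameters they list (input, all duplicates kept, the p threshold) hold no scaling option. The methods state a p threshold equal to a -log10 of 5, yet the deposited lists go down to 4.00, with 3.60% of control and 2.41% of knockdown peaks under 5.

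The deposited files hold, for each peak, a display score, the fold ratio over background, -log10 p and -log10 q; the last and the display score were not used. No read counts were given, so depth is unknown, and 1 peak per list outside chromosomes 1 to 22, X and Y was left out.

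Peaks were shared when they overlapped by 1 bp or more. Covered bp per gene (GENCODE release 44, GRCh38, 1 entry per symbol, 10 kb flanks) was checked with bedtools 2.31.1 and on simulated intervals. Python 3.11.15, pandas 2.3.3 and scipy 1.17.1 were used. With 1 library per arm no test was run, and values are descriptions. The genes named were the 20 loci at each end of the ranking, the 10 first with cover in 1 arm alone, the largest gain and loss of each list, the 5 first peaks and pairs of each kind and SKP2; some genes and 1 family that this rule names are not reported here, and other list members and the order per kb were picked after their values were seen. The members and lists were chosen with earlier results of these data known. Alternatives were a reciprocal overlap of 50%, a distance of 1000 bp, a score of at least 10, knockdown lists cut to the control's peak number or covered length, no flank and, chosen after seeing the data, shortened knockdown peaks.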

Additional observations from a re-analysis of the deposited data

How the results depend on the processing

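No paired analysis was possible because each arm has 1 library and no test was run. The share of control peaks kept, 86.4%, was 48.9% with reciprocal overlap of 50%, 93.0% with a peak within 1000 bp, 91.1% at scores of at least 10, 76.4% at equal peak number and 50.3% at equal covered length. The share of knockdown peaks without counterpart, 48.6%, was 67.8%, 37.2%, 54.0%, 32.2% and 11.5% in the same order. Genes with more cover numbered 13366, and 7163 at equal covered length. Genes with less cover numbered 785, 5188 at equal covered length and 1819 at equal peak number, both of which remove knockdown peaks by construction. Leaving out a replicate was not possible with 1 library per arm. At equal covered length 25.9% of all genes had less cover, against 58.0% of the cell cycle list, 65.2% of histone genes, 83.0% of clustered protocadherins and 13.5% of complex I subunits. That setting kept 12309 knockdown peaks, scoring at least 15.6, and all control peaks down to 4.00. Peaks of lower score were thus removed from knockdown alone, so falls and changes of sign there partly follow from the cut.

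Of 66 named genes with more cover, 29 changed sign at equal covered length, in kb: RAD51B -4.42, PDE4D -6.34, PALM2AKAP2 -1.72, PRKG1 -6.41, RUNX1 -4.45, LTBP1 -2.02, ADAM12 -3.60, ZFPM2 -0.745, NAV2 -1.99, COL19A1 -3.26, TCF4 -1.48, RERE -1.56, CDK6 -2.44, ETV1 -0.291, ISG15 -0.538, TCF7L1 -1.99, MAML2 -1.92, COL5A2 -3.80, MACF1 -2.30, ACACA -0.761, HK1 -0.232, SEMA3A -2.93, MSI2 -0.494, RUNX2 -1.10, MBP -0.144, KRT8 -0.736, ATP5ME -0.596, RPL23A -0.490 and SKP2 -0.295. At equal peak number COL5A2 was at -0.251. Of 45 with less cover, 11 changed sign at scores of at least 10: IL7R 0.0710, NFIX 0.312, FSCN1 0.115, HYKK 0.831, PAX7 0.276, CDH15 0.291, BTRC 0.126, SPRED1 0.745, IRF1 0.340, ANKRD1 0.0570 and VCAN 1.42. A further 25 moved by more than 1.5 times, 16 losses among them to 0, and 9 stayed within that range. Without flanks NQO1 was at 0.171. Shortened knockdown peaks changed no sign.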
